A study of Mus musculus with 90 samples.

Results

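Whether chronic social stress altered the expression difference between p16 high and p16 low tissue of the mouse hippocampus was examined in 36 of the 90 areas of interest of the series, those placed in the hippocampal fields CA1 and CA3. The areas came from 6 mice exposed to chronic social stress (CSS; mice 1152, 1157, 1162, 1163, 1169 and 1170) and 4 control mice (ctrl; mice 1151, 1168, 1175 and 1182). Within each mouse and field, the value of the p16 low area was subtracted from that of the p16 high area, and the differences of both fields were averaged where both existed. These 10 within-mouse differences were then compared, CSS minus ctrl, so that each result below is an interaction of stress and p16 label and not a p16 effect or a stress effect. Members were chosen by their labels alone, and no measured value entered the choice.

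Sections of formalin-fixed, paraffin-embedded brain, 5 µm thick, had been profiled with the GeoMx platform, in which barcodes of RNA probes are released by light from a chosen area and counted by sequencing. Every group consisted of brain tissue of mice, and strain, sex, age, the stress protocol and the way an area was called p16 high or low were not stated in the labels used here. Each area held many cells, so fewer cells of a type and less RNA per cell cannot be told apart. The deposited table gave 19962 genes, each as a signal scaled by the authors to the same median in every area, 22.067.

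p16, encoded by Cdkn2a, blocks the cyclin-dependent kinases that drive cells into S phase, and its accumulation is a widely used mark of cellular senescence. Senescent cells stop dividing, resist apoptosis and often secrete cytokines, proteases and growth factor binding proteins. In the hippocampus, pyramidal neurons of CA3 project to those of CA1, and both fields carry receptors for glucocorticoids, the hormones released in social stress.

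Of the 36 areas, 32 formed 16 pairs of a p16 high and a p16 low area from the same field of the same mouse. CA1 gave pairs in 4 CSS and 4 ctrl mice, and CA3 in 5 CSS and 3 ctrl mice. Both fields were paired in 3 CSS mice (1152, 1157 and 1162) and 3 ctrl mice (1151, 1168 and 1175). The other 4 mice contributed 1 field each, CA1 in CSS mouse 1163 and ctrl mouse 1182 and CA3 in CSS mice 1169 and 1170. The fields were thus not balanced between the groups, and field was not a term of the main test. A p16 difference that varies by field can therefore enter the CSS minus ctrl values. Field as a term, and the mice with both fields alone, were among the other settings. Pyramidal neuron markers separated the fields as labelled in all 36 areas. The mean log2 signal of CA3 markers minus that of CA1 markers lay between 0.98 and 2.63 in the 18 CA3 areas and between -3.82 and -2.58 in the 18 CA1 areas.

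Whole probe counts recovered from the signal summed to between 243610 and 1421580 per area (median 675336). Some areas failed a check of the steps used to recover counts, among them the area of highest total, the p16 low CA3 area of ctrl mouse 1175. Their recovered counts are less certain but entered the counts and the test of total counts given here. The median gene had 6 to 49 counts and stood 1.28 to 2.05 times above the negative control probe. Between 17.1% and 26.1% of genes lay at or below that probe. The 11 areas of lowest total all came from the 4 mice with a single paired field, whose remaining area, the p16 low CA3 area of CSS mouse 1169, had 611109 counts. The p16 high minus low difference in log2 total counts was -0.22 ± 0.42 in CSS mice and -0.14 ± 0.17 in ctrl mice (mean ± SD, exact 2-sided permutation p = 0.791). That of the log2 ratio of gene median to negative probe was 0.12 ± 0.10 in CSS mice and 0.09 ± 0.03 in ctrl mice (exact permutation p = 0.514).

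No gene passed the test for a stress dependence of the hippocampal p16 difference. With limma on log2(signal + 1), 0 of 19962 genes (0%) had a Benjamini-Hochberg adjusted p under 0.05, and the lowest adjusted p was 0.9997. At an unadjusted p under 0.05 there were 605 genes (3.03%), 277 higher (1.39%) and 328 lower (1.64%) in CSS mice. Over all genes 49.9% had a difference above 0. With scaling to the 75th percentile that share was 55.8%, and the median over all genes moved to 0.0425. edgeR's quasi-likelihood test, on recovered counts of the pairs that allowed it (6 CSS and 3 ctrl mice), called 2 genes, Sst and Rgs19, and gave 886 at an unadjusted p under 0.05. Its ctrl pairs were all from CA1 and its CSS pairs from both fields, so stress and field cannot be told apart there. On CA1 pairs alone (4 CSS and 3 ctrl mice) edgeR called 4 genes, Sst and Rgs19 among them. The differences of the 6 CSS mice and the 4 ctrl mice did not overlap in 113 genes (0.566%), 36 of them higher (0.18%) and 77 lower (0.386%). In 15 genes (0.0751%) all CSS mice were above 0 and all ctrl mice below it, and 15 (0.0751%) showed the reverse.

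The precision of the differences depended on signal. Among the 4991 genes of highest signal, the median standard error of the CSS minus ctrl difference was 0.21 on the log2 scale and the median half-width of its 95% interval 0.44. Among the 4990 of lowest signal they were 0.44 and 0.90. These intervals are unadjusted and for single genes, so they do not give the size needed to pass over all genes. A gene that missed the threshold is therefore not shown to be equal between the groups.

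**Figure D1:**
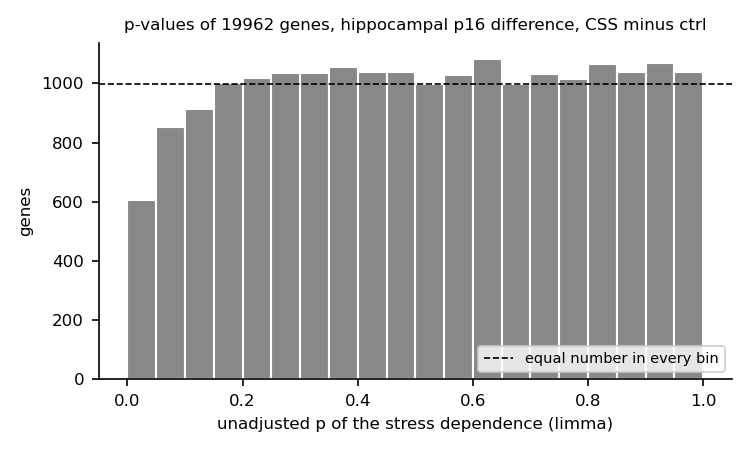
Histogram of the unadjusted limma p of all 19962 genes for the CSS minus ctrl difference (x axis: p in bins of 0.05; y axis: number of genes; dashed line: the same number in every bin). The lowest bin held 605 genes, fewer than the 998.1 at the dashed line.

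Ptgds had the highest moderated t of all genes in this comparison. It encodes the lipocalin-type prostaglandin D synthase, an enzyme abundant in the brain, where it is made in the leptomeninges, the choroid plexus and oligodendrocytes. The gene lies at chr2:25466709-25470110 (mm10), and its signal exceeded the negative probe in all 36 areas. In p16 high CA1 areas its signal was 78.1, 214.4, 164.5 and 110.3 in CSS mice 1152, 1157, 1162 and 1163, against 53.9, 106.4, 52.0 and 29.4 in the p16 low areas of the same mice. In ctrl mice 1151, 1168, 1175 and 1182, p16 high CA1 areas had 28.4, 27.9, 50.4 and 63.1, against 19.1, 38.6, 61.4 and 82.8 in p16 low areas. So the p16 high area had more Ptgds in 4 of 4 CSS mice and in 1 of 4 ctrl mice, mouse 1151.

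In CA3 the p16 high areas of CSS mice 1152, 1157, 1162, 1169 and 1170 had a Ptgds signal of 67.2, 153.2, 152.0, 167.1 and 167.1, against 80.0, 94.1, 132.4, 120.0 and 103.7 in their p16 low areas. In ctrl mice 1151, 1168 and 1175 the p16 high areas had 36.1, 46.7 and 67.7, against 59.9, 74.7 and 77.5 in p16 low areas. The p16 high area was the higher one in 4 of 5 CSS mice, all but 1152, and in 0 of 3 ctrl mice.

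Averaged over the fields, the Ptgds difference was 0.14, 0.85, 0.92, 1.87, 0.47 and 0.68 log2 units in CSS mice 1152, 1157, 1162, 1163, 1169 and 1170, and -0.08, -0.56, -0.24 and -0.39 in ctrl mice 1151, 1168, 1175 and 1182. Every CSS mouse lay above 0 and every ctrl mouse below it. The mean was 0.82 ± 0.59 in CSS mice and -0.32 ± 0.20 in ctrl mice, and the CSS minus ctrl difference was 1.14 (SE 0.25, 95% interval 0.63 to 1.65), a 2.20-fold difference of ratios. It did not pass over all genes (limma adjusted p = 0.9997). Over 24 other settings the difference ran from 0.89 to 1.29, and its adjusted p from 0.0303 to 1, with 1 call. The setting that called it took each field as its own value with field as a term and the mouse as a random block (1.18, SE 0.21, limma adjusted p = 0.0303). In the 6 mice with both fields, the difference was 0.93 (SE 0.22, limma adjusted p = 0.744). Without CSS mouse 1163, which had the highest value and only CA1, it was also 0.93 (SE 0.20).

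**Figure D2:**
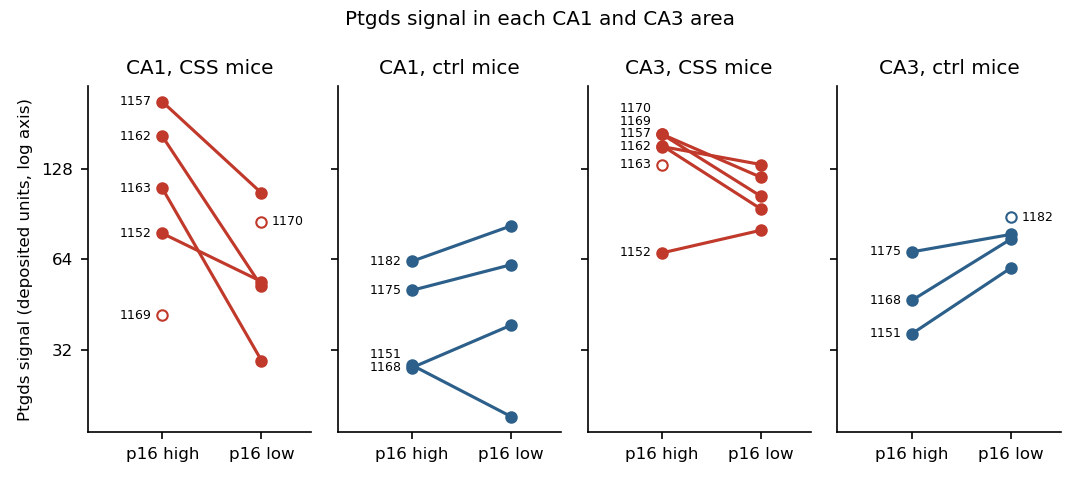
Ptgds signal (y axis, deposited units, log axis) in the p16 high and p16 low areas of CA1 and CA3, with CSS mice in red and ctrl mice in blue, each line joining the areas of the mouse numbered beside it and open circles marking areas with no partner. Lines run down from high to low in 4 of 4 CSS mice in CA1 and 4 of 5 in CA3, and up in 3 of 4 and 3 of 3 ctrl mice.

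Genes were named among those whose mean signal lay above that of the median gene, by the 10 highest and 10 lowest moderated t. After Ptgds, the other 9 genes on the higher side had differences of 0.67 to 1.15. Rflnb, which encodes refilin B, a filamin-binding protein, had 0.32 ± 0.57 in CSS mice and -0.83 ± 0.68 in ctrl mice (difference 1.15, SE 0.36). Pik3ca, the catalytic alpha subunit of phosphoinositide 3-kinase, had 0.06 to 1.69 in CSS mice and -1.05 to -0.22 in ctrl mice, with no overlap (1.0, SE 0.33). Slbp, which binds the stem-loop of histone mRNAs, had 0.18 to 1.43 in CSS mice and -0.46 to -0.00057 in ctrl mice (0.96, SE 0.33). Those 2 genes and Ptgds were the members of these 10 with all CSS mice above 0 and all ctrl mice below it. Rflnb, Pik3ca and Slbp lay close to background, on average 1.68, 1.94 and 1.61 times the negative probe. In the p16 high CA1 area of ctrl mouse 1182 the Rflnb signal was 6.3, or 0.58 times that probe.

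Groups also did not overlap in Mfsd11, a gene of the major facilitator family, with 0.21 to 1.15 in CSS mice and -1.54 to 0.13 in ctrl mice (1.02, SE 0.35). In the remaining 5 genes the groups overlapped. They were Pwwp2a (0.67, SE 0.23), a chromatin protein gene; Noc3l (0.94, SE 0.34), of ribosome assembly; Lrp6 (0.88, SE 0.32), a Wnt co-receptor; Tubg2 (0.84, SE 0.31), a gamma-tubulin; and Bag4 (0.74, SE 0.27), a co-chaperone. None of the 9 passed over all genes (limma adjusted p = 0.9997 for each). The signal of Mfsd11, Noc3l, Lrp6 and Tubg2 averaged 1.74, 2.2, 2.09 and 1.99 times the negative probe. For Pwwp2a and Bag4 it averaged 4.09 and 3.11 times.

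Crocc had the lowest moderated t of all genes. It encodes rootletin, the main protein of the ciliary rootlet, and lies at chr4:141016637-141060615 (mm10). Its p16 difference was -0.21, 0.20, 0.13, -0.45, -0.38 and -0.34 in CSS mice 1152, 1157, 1162, 1163, 1169 and 1170, and 0.89, 0.43, 0.43 and 1.09 in ctrl mice 1151, 1168, 1175 and 1182. All ctrl mice thus lay above all CSS mice. The mean signal in p16 high areas was 43.3 in CSS mice and 66.8 in ctrl mice, while p16 low areas had 49.8 in CSS mice and 39.6 in ctrl mice. The CSS minus ctrl difference was -0.89 (SE 0.23, 95% interval -1.36 to -0.41) and did not pass over all genes (limma adjusted p = 0.9997).

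Sdc2, the gene of the cell surface proteoglycan syndecan 2, had the most negative difference among the 10 genes of lowest moderated t (-1.39, SE 0.39). CSS mice ran from -1.85 to 0.02 and ctrl mice from -0.20 to 1.80, so the groups overlapped. The value of 1.80 was that of ctrl mouse 1182, whose p16 low CA1 area had an Sdc2 signal of 11.0, or 0.94 times the negative probe. Ska2, of the complex that links kinetochores to microtubules, had -2.22 to -0.07 in CSS mice and 0.05 to 0.49 in ctrl mice, with all CSS mice below 0 and all ctrl mice above it (-1.05, SE 0.36). Actn1, encoding the actin crosslinker alpha-actinin 1, had -0.97 to 0.12 in CSS mice and 0.09 to 0.63 in ctrl mice (-0.63, SE 0.21).

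Also among the lower 10 were Rbm43 (-1.17, SE 0.37), an RNA-binding protein gene; Vps29 (-0.91, SE 0.30), of the retromer that returns receptors from endosomes; Dguok (-0.90, SE 0.30), a mitochondrial deoxynucleoside kinase; Btbd8 (-0.88, SE 0.30); and Pdpr (-0.75, SE 0.26), a regulator of pyruvate dehydrogenase phosphatase. None passed over all genes. The signal of Rbm43 exceeded the negative probe in only 28 of 36 areas, and that of Ska2 averaged 1.84 times this probe. The plot of the leading genes shows that single mice set the extremes of several of them. CSS mouse 1163 was the highest for Pik3ca, ctrl mouse 1182 the lowest for Rflnb, Mfsd11 and Noc3l and the highest for Crocc and Sdc2, and CSS mouse 1169 the lowest for Ska2.

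**Figure D3:**
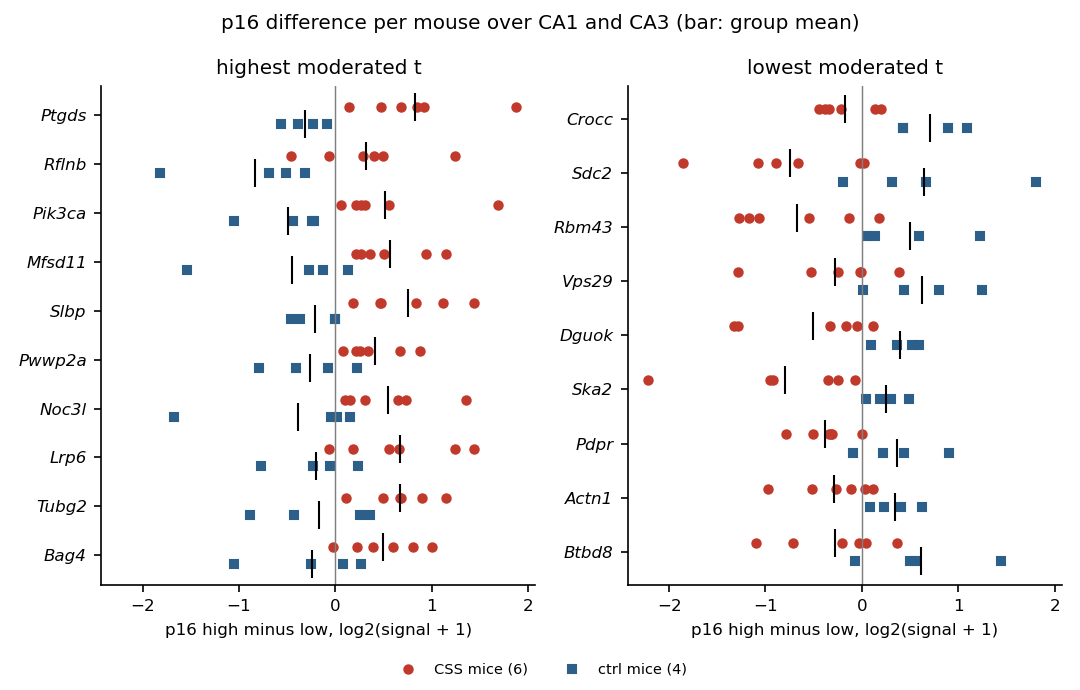
p16 high minus low difference on the log2(signal + 1) scale (x axis) in each mouse for the 10 genes of highest (left) and 9 of the 10 of lowest (right) moderated t among those above the median gene in signal, with CSS mice as red circles, ctrl mice as blue squares and a black bar at each group mean. In Ptgds, Pik3ca, Mfsd11 and Slbp all CSS mice lie right of all ctrl mice, and in Crocc and Ska2 all lie left of them.

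The p16 gene itself and the related inhibitors gave values on both sides of 0. Cdkn2a (chr4:89274473-89294619, mm10) lay close to background, with a signal of 8.28 to 33.1 over the 36 areas, above the negative probe in 33 of them. Its p16 high minus low difference was 0.34, -0.09, 0.30, 0.94, -0.75 and -0.89 in CSS mice 1152, 1157, 1162, 1163, 1169 and 1170, and -0.43, -0.59, 0.16 and 1.5 in ctrl mice 1151, 1168, 1175 and 1182. The p16 high area was thus higher in 3 of 6 CSS mice and 2 of 4 ctrl mice, so the transcript did not follow the label in either group. The CSS minus ctrl difference was -0.18 (SE 0.42, 95% interval -1.04 to 0.68), 0.26 (SE 0.40) without ctrl mouse 1182 and 0.47 (SE 0.29) in the mice with both fields.

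Cdkn1a, which encodes p21, an inhibitor induced by p53, had -0.22 ± 0.33 in CSS mice and -0.54 ± 0.56 in ctrl mice (0.32, SE 0.32). Cdkn2b, the neighbour of Cdkn2a that encodes the related inhibitor p15, had -0.14 ± 0.62 in CSS mice and -0.34 ± 0.28 in ctrl mice (0.21, SE 0.36). Of the 7 cell cycle inhibitor genes measured, 5 had a CSS minus ctrl difference above 0 (median 0.21, against -0.00037 over all genes), 0 of them at an unadjusted p under 0.05. Cdkn2d was the highest (0.49, SE 0.26), and it turned to -0.02 in the 6 mice with both fields. Cdkn1c (0.48, SE 0.42) turned to -0.12 in those mice.

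Senescence-related programmes gave values on both sides of 0. Of 28 genes of the p53 and DNA damage response, 15 were above 0 with a median of 0.04, while the mean over the list was -0.02. Zmat3, a p53 target that binds RNA, was the member at an unadjusted p under 0.05, with 0.08 ± 0.24 in CSS mice and 0.58 ± 0.34 in ctrl mice (-0.49, SE 0.20). Of 44 secreted factors linked to senescence, 21 were above 0 (median -0.05). One of them had an unadjusted p under 0.05, Igfbp4, which encodes a protein that binds insulin-like growth factors, with -1.71 to 0.82 in CSS mice and 0.30 to 0.66 in ctrl mice (-0.86, SE 0.31). Of 29 genes of the interferon response and antigen presentation 13 were above 0 (median -0.05, or 0.02 with quantile normalization), with the double-stranded RNA sensor Ifih1 having -1.22 (SE 0.51) near the bottom of the signal range.

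Over all 683 distinct genes of the 29 lists used here, 24 (3.51%) had an unadjusted p under 0.05, against 3.03% of all genes, 7 of them higher and 17 lower in CSS mice. Groups did not overlap in 4 of the 683 (0.586%, against 0.566% of all genes), namely Vcan on the higher side and Vip, Dlx2 and Ndufa8 on the lower. The lists as a whole therefore stood near the background of the comparison.

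Glucocorticoid signalling, the hormone pathway most directly tied to stress, had 10 of 26 genes above 0 (median -0.05, or -0.0003 with scaling to the 75th percentile). Under that scaling the median over all genes was 0.0425. The receptor gene Nr3c1 had 0.04 ± 0.53 in CSS mice and 0.06 ± 0.19 in ctrl mice (-0.02, SE 0.22, 95% interval -0.48 to 0.44), and this value turned sign in 7 of 24 other settings. Fkbp5, a co-chaperone of the receptor that glucocorticoids induce, had a p16 difference of 0.36 ± 0.43 in CSS mice and 0.76 ± 0.36 in ctrl mice (-0.40, SE 0.28). Its p16 high area was the higher one in 5 of 6 CSS mice and 4 of 4 ctrl mice.

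Sgk1, an induced kinase gene, ran the other way, with 0.34 ± 0.40 in CSS mice and 0.05 ± 0.17 in ctrl mice (0.28, SE 0.22). Other hormone targets gave values on both sides of 0. Nfkbia, which encodes an inhibitor of NF-kappa-B, had 0.19 ± 0.62 in CSS mice and -0.55 ± 0.76 in ctrl mice (0.75, SE 0.38). Zbtb16, a zinc finger transcription factor gene, had 0.11 ± 0.56 in CSS mice and 0.62 ± 0.35 in ctrl mice (-0.51, SE 0.25). Tsc22d3, which encodes the leucine zipper protein GILZ, had -0.21 ± 0.52 in CSS mice and 0.33 ± 0.40 in ctrl mice (-0.54, SE 0.29). Pdk4, a kinase gene of pyruvate dehydrogenase whose signal was below that of 95% of genes, had -0.57 ± 0.72 in CSS mice and 0.55 ± 0.71 in ctrl mice (-1.12, SE 0.46). None of these passed. The median of the list was 0.002 without ctrl mouse 1151.

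Genes that respond to neuronal activity were split evenly, with 12 of 25 immediate early genes above 0 and a median of -0.01, which became 0.03 with quantile normalization and with scaling to the 75th percentile. Over all genes those settings gave medians of 0.002 and 0.0425. Egr1 was higher in p16 high areas by 0.18 ± 0.30 in CSS mice and 0.18 ± 0.14 in ctrl mice (difference 0.01, SE 0.17, 95% interval -0.35 to 0.36), with a sign that turned in 9 of 24 other settings. Arc, whose protein remodels synapses, had 0.03 ± 0.26 in CSS mice and 0.28 ± 0.19 in ctrl mice (-0.25, SE 0.17). Fos had 0.09 ± 0.61 in CSS mice and 0.19 ± 0.26 in ctrl mice (-0.10, SE 0.31). Nr4a1 (-0.55, SE 0.25), a nuclear receptor gene, and Nptx2 (-0.61, SE 0.29), a pentraxin that clusters AMPA receptors, were the 2 members at an unadjusted p under 0.05. Bdnf, the neurotrophin gene, was above 0 in 6 of 6 CSS mice and 3 of 4 ctrl mice (0.20, SE 0.23), and its difference was -0.10 in the mice with both fields.

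Synaptic lists also held close to 0. Above 0 were 11 of 28 postsynaptic density genes (median -0.04), 9 of 22 glutamate receptor genes (-0.03), 14 of 31 genes of the presynaptic vesicle cycle (-0.02) and 11 of 22 neuronal calcium sensors (0.02). The calcium sensor gene Hpcal1 had -0.91 (SE 0.39), with a signal above the negative probe in only 22 of 36 areas. Scaling to the 75th percentile, and separately leaving out ctrl mouse 1151, turned the medians of the other 3 lists above 0. That scaling also moved the median over all genes to 0.0425. The 2 members of the postsynaptic density list at an unadjusted p under 0.05 were related scaffold genes. Homer3 had 0.68 ± 0.75 in CSS mice and -0.18 ± 0.57 in ctrl mice (0.87, SE 0.33), whereas Homer2 had -0.11 ± 0.63 in CSS mice and 0.63 ± 0.45 in ctrl mice (-0.74, SE 0.27). The receptor subunit genes Gria2 (0.15, SE 0.14) and Grin2a (-0.11, SE 0.14) had narrow errors, and their p16 difference was above 0 in all 6 CSS mice and in 3 and 4 of the 4 ctrl mice.

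A further list held 19 genes that earlier work on these same samples had reported as higher in p16 high areas of hippocampus and cortex, so it is no independent evidence. In the hippocampus the mean of the list was above 0 in every mouse, from 0.07 to 0.51 in CSS mice and from 0.18 to 0.71 in ctrl mice, and the groups overlapped. Of its members 5 of 19 had a CSS minus ctrl difference above 0 (median -0.05). Cpne7, a copine gene, had 0.62 ± 0.42 in CSS mice and 0.89 ± 0.82 in ctrl mice (-0.27, SE 0.27), and 0.03 without ctrl mouse 1151. Hpca, the gene of the calcium sensor hippocalcin, had 0.31 ± 0.34 in CSS mice and 0.44 ± 0.42 in ctrl mice (-0.13, SE 0.20), and 0.07 without ctrl mouse 1151.

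Oligodendrocyte genes had the highest median of the 29 lists. Of 20 genes 18 had a difference above 0, with a median of 0.28 against -0.00037 over all genes, and 1 had an unadjusted p under 0.05. That member, Cldn11, a tight junction protein of myelin, had 0.15 ± 0.43 in CSS mice and -0.57 ± 0.46 in ctrl mice (0.73, SE 0.28). The myelin enzyme genes Cnp (0.41, SE 0.25) and Fa2h (0.52, SE 0.30) were further above 0, and Ugt8a, an enzyme of galactolipid synthesis, was below it (-0.90, SE 0.47). The signal of Ugt8a exceeded the negative probe in only 15 of 36 areas. Mean list differences were -0.01, 0.21, 0.01, 0.36, -0.31 and 0.04 in CSS mice 1152, 1157, 1162, 1163, 1169 and 1170, and -0.09, -0.06, -0.30 and -0.31 in ctrl mice 1151, 1168, 1175 and 1182. All 4 ctrl mice were below 0, as were 2 of 6 CSS mice, and the groups overlapped through CSS mouse 1169.

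The median was above 0 in both fields (0.33 in CA1, 0.37 in CA3) and in 23 of 24 other settings. The exception was edgeR on recovered counts, whose ctrl pairs were all from CA1, at -0.03 with 9 of 20 genes above 0. The summed signal of the list in p16 high areas ran from 561.1 to 1110 in CSS mice and from 598 to 668.3 in ctrl mice, and in p16 low areas from 448.7 to 1034 in CSS mice and from 664.8 to 759.5 in ctrl mice. These sums also mix the fields in unlike proportions in the groups. Ptgds, which oligodendrocytes also express, and this list were thus both above 0 in the comparison, and the part of cell composition in the Ptgds values was not tested.

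Endothelial genes came next among the cell types, with 10 of 16 above 0 (median 0.17). Emcn, which encodes endomucin, had 0.44 ± 0.73 in CSS mice and -0.60 ± 0.35 in ctrl mice (1.04, SE 0.40), and Flt1, a receptor of vascular endothelial growth factors, had a difference of 0.54 (SE 0.33). The signal of Emcn exceeded the negative probe in 25 of 36 areas. Astrocyte genes were above 0 in 9 of 20 cases (median -0.04), and the growth factor receptor gene Fgfr3 had -0.82 ± 0.62 in CSS mice and 0.18 ± 0.54 in ctrl mice (-1.0, SE 0.34). Microglial genes were above 0 in 8 of 20 (median -0.02), with the lysosomal protease Ctss at -0.53 (SE 0.29). The medians of astrocyte and microglial genes turned above 0 with scaling to the 75th percentile, and that of microglial genes also with quantile normalization. Under the 75th percentile scaling the median over all genes was 0.0425.

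Inhibitory neuron genes had a median of -0.20, with 8 of 22 above 0. Pvalb, the parvalbumin gene of fast-spiking interneurons, had a p16 difference of -1.80, 0.39, -0.65, -0.67, -1.24 and -0.55 in CSS mice 1152, 1157, 1162, 1163, 1169 and 1170, and 0.46, 0.17, -0.11 and -0.09 in ctrl mice 1151, 1168, 1175 and 1182. In 5 of 6 CSS mice, all but 1157, the value lay below every ctrl mouse (-0.86, SE 0.31). Tac1, which encodes the precursor of substance P, had -0.87 ± 0.76 in CSS mice and 0.12 ± 0.26 in ctrl mice (-0.99, SE 0.38). Vip, a neuropeptide gene, had -0.40 ± 0.71 in CSS mice and 0.68 ± 0.46 in ctrl mice (-1.08, SE 0.42) and did not overlap, but its signal exceeded the negative probe in only 14 of 36 areas.

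Sst, the somatostatin gene, varied widely between mice, with -1.43 to 2.35 in CSS mice and -2.98 to 1.75 in ctrl mice. Its CSS minus ctrl difference was 1.18 (SE 0.65), opposite in sign to that of Pvalb, Tac1 and Vip. edgeR called it (1.72, edgeR adjusted p = 0.0207). That set held ctrl pairs of CA1 alone and lacked ctrl mouse 1175, which was the ctrl mouse of highest value. With CA1 pairs alone in both groups (4 CSS and 3 ctrl mice), edgeR called Sst too, again without ctrl mouse 1175. The inhibitory list had a mean of -0.81 to 0.11 in CSS mice and -0.64 to 0.33 in ctrl mice, and its median was 0.001 with edgeR.

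The list means of markers of the fields, of tissue next to them and of further cell types overlapped between the groups. Of 16 choroid plexus genes 7 were above 0 (median -0.08), with the transthyretin gene Ttr at -0.39 (SE 0.40), or 0.11 without ctrl mouse 1182 and 0.41 in the mice with both fields, and the water channel Aqp1 at -1.46 (SE 0.50). Of 12 ependymal genes 3 were above 0 (median -0.22, and 0.02 in the 6 mice with both fields), although its member of smallest p, the ciliary kinase gene Ak7, had 1.19 (SE 0.49). Aqp1 exceeded the negative probe in only 19 of 36 areas and Ak7 in only 13. CA1 markers had a median of -0.08, with Wfs1 at -0.57 (SE 0.28), and CA3 markers of 0.08, with Iyd at 0.81 (SE 0.36), and dentate granule markers one of 0.07. The CA3 value was -0.13 in the mice with both fields. Mural cells had 7 of 14 genes above 0 (median -0.02). Scaling to the 75th percentile gave a median of 0.03, against 0.0425 over all genes. Oligodendrocyte precursors had 4 of 10 genes above 0 (-0.09). Vcan, a proteoglycan gene of these precursors, had 0.45 ± 0.57 in CSS mice and -0.35 ± 0.28 in ctrl mice (0.81, SE 0.39). Its groups did not overlap, but its signal exceeded the negative probe in only 21 of 36 areas.

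Energy metabolism gave small values. Of 75 genes of oxidative phosphorylation 21 were above 0, with a median of -0.07 and a range of -0.37 to 0.23. Ndufa8, a subunit of complex I, had -0.05 to 0.24 in CSS mice and 0.29 to 0.57 in ctrl mice without overlap (-0.36, SE 0.16), and Uqcrc2, of complex III, had a difference of -0.37 (SE 0.17). The count above 0 was 23 of 75 with quantile normalization, 34 with scaling to the 75th percentile and 2 in the mice with both fields. Over all genes the 75th percentile scaling put 55.8% above 0. The list median became 0.005 without ctrl mouse 1151, whose list mean of 0.51 was the highest of all mice, and 0.003 with edgeR. Glycolysis genes had a median of 0.02, with the hexokinase gene Hk2 at 0.81 (SE 0.38), ribosomal protein genes of 0.01 and lysosomal genes of 0.02. All 3 medians were below 0 in the mice with both fields. Hk2 exceeded the negative probe in only 18 of 36 areas. Heat shock and unfolded protein genes were above 0 in 11 of 29 cases (median -0.05), and Eif2ak3, the stress sensor kinase PERK of the endoplasmic reticulum, had a difference of 0.63 (SE 0.25). Neurotrophins and their receptors were above 0 in 4 of 12 (median -0.16).

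**Figure D4:**
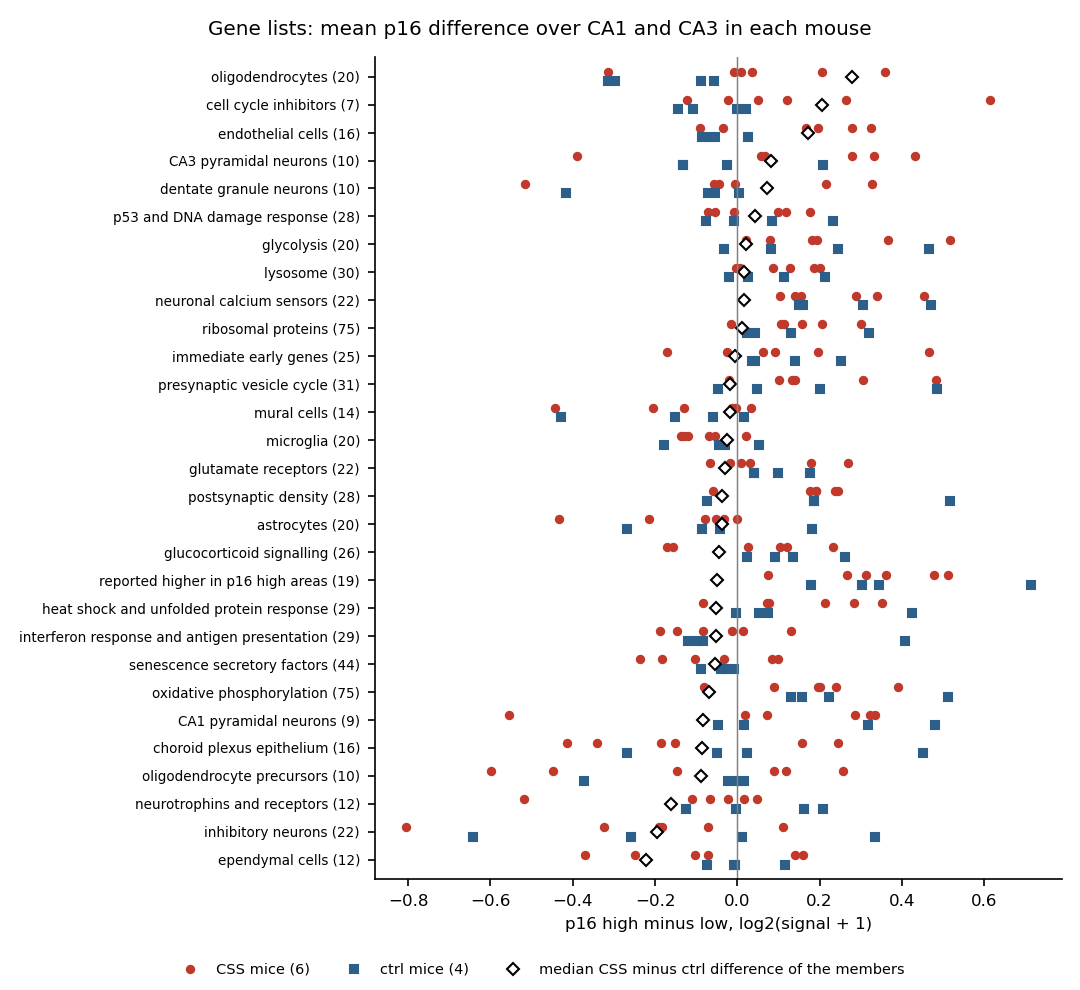
Mean p16 high minus low difference over each gene list (x axis, log2(signal + 1)) in each mouse, with CSS mice as red circles, ctrl mice as blue squares and the median CSS minus ctrl difference of the members as an open diamond; the number of measured genes is in brackets. The medians run from 0.28 for oligodendrocytes to -0.22 for ependymal cells, and the mice of both groups overlap in every list.

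The fields were also compared on their own. In CA1 (4 CSS and 4 ctrl mice) 0 of 19962 genes were called (0%), with 839 at an unadjusted p under 0.05 (4.2%, 2.14% higher and 2.06% lower) and 522 without overlap between groups (2.61%, 1.32% higher and 1.29% lower), and 50.6% of genes were above 0. Ptgds again had the highest moderated t of all genes, with a p16 difference of 1.26 ± 0.61 in CSS mice and -0.14 ± 0.47 in ctrl mice (1.41, SE 0.27, limma adjusted p = 0.218). Its values overlapped by 1 mouse, ctrl 1151 at 0.55 against CSS 1152 at 0.53. It was the only gene called in CA1 under 6 other settings, the adjusted p being 0.0213 with log2(signal + 10), 0.0327 with quantile normalization, 0.0385 with scaling to the 75th percentile, 0.00652 with depth as a covariate, 0.0323 without CSS mouse 1152 and 0.0325 without ctrl mouse 1151.

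Next in CA1, among genes above the median gene in signal, were Rflnb (1.52, SE 0.42) and C2cd4b, a gene named for its C2 domain, with 0.99 ± 0.30 in CSS mice and -0.39 ± 0.70 in ctrl mice (1.38, SE 0.41, no overlap). The lowest of these were Sdc2 (-1.50, SE 0.43), the sterol synthesis gene Hmgcs1 (-1.02, SE 0.29), and Atp6v0d1 of the proton pump that acidifies vesicles, with -0.27 ± 0.14 in CSS mice and 0.28 ± 0.13 in ctrl mice (-0.55, SE 0.16, no overlap). In CA3 the values of the last 3 were -0.61 for C2cd4b, 0.15 for Hmgcs1 and -0.19 for Atp6v0d1. Whether the fields differed was not tested.

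In CA3 (5 CSS and 3 ctrl mice) 0 genes were called (0%), with 561 at an unadjusted p under 0.05 (2.81%, 0.942% higher and 1.87% lower) and 499 without overlap (2.5%, 0.942% higher and 1.56% lower). Only 42.7% of all genes had a difference above 0 there, with a median of -0.06. Ptgds had 0.36 ± 0.40 in CSS mice and -0.52 ± 0.29 in ctrl mice (0.89, SE 0.27). Psmd10, the gene of gankyrin, a chaperone of proteasome assembly, had 0.73 ± 0.49 in CSS mice and -0.54 ± 0.09 in ctrl mice without overlap (1.27, SE 0.34). Sema5b, of the semaphorins that guide axons, had a difference of 1.54 (SE 0.44).

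The lowest moderated t values among the same genes in CA3 belonged to Sh3bp4 (-1.13, SE 0.30, no overlap), an adaptor of endocytosis, Homer2 (-1.55, SE 0.45) and Nr4a1 (-1.10, SE 0.33). Homer2 had -1.17, 1.65, 1.10, -0.18 and -1.0 in CSS mice 1152, 1157, 1162, 1169 and 1170, and 2.21, 1.69 and 0.98 in ctrl mice 1151, 1168 and 1175. Cpne7 in CA3 had 0.47 ± 0.97 in CSS mice and 1.66 ± 0.84 in ctrl mice (-1.20, SE 0.40), against 0.85 ± 0.32 in CSS mice and 0.58 ± 0.52 in ctrl mice in CA1 (0.27, SE 0.22).

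To ask whether the hippocampal values differed from those of the cortex, the same p16 difference was taken over the motor and somatosensory cortex of each mouse and subtracted. No gene was called (0 of 19962, 0%, limma), with 801 at an unadjusted p under 0.05 (4.01%, 1.71% higher and 2.3% lower) and 151 without overlap (0.756%, 0.306% higher and 0.451% lower), and 47.6% of genes were above 0. Ptgds had the highest moderated t of all genes here too. In the cortex its p16 difference was -0.25 ± 0.35 in CSS mice and 0.15 ± 0.49 in ctrl mice. The hippocampal minus cortical stress dependence of Ptgds was 1.54 (SE 0.33, limma adjusted p = 0.9919), with 0.26 to 2.65 in CSS mice and -0.85 to 0.01 in ctrl mice.

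Among genes above the median gene in signal, Pvalb had the third lowest moderated t. Its value was -0.86 (SE 0.31) in hippocampus, 0.82 in cortex and -1.68 (SE 0.46) for their difference. Fgfr1op2 (-0.97, SE 0.25) and Dtnbp1 (-0.95, SE 0.26), which encodes the synaptic trafficking protein dysbindin, did not overlap between groups. On the higher side, among genes above the median gene in signal, followed the neuronal pentraxin gene Nptx1 (0.80, SE 0.23) and Homer3 (1.29, SE 0.40). In the 3 CSS and 3 ctrl mice with both hippocampal fields paired, 7 of 19962 genes passed with limma, 2 higher and 5 lower in CSS mice. Among the 7 were Nefm, Rasgrf1, Rab3c, Dtnbp1 and Ptgds, which were named after their values were seen.

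Among the lists, oligodendrocyte genes had a median of 0.28 in hippocampus (18 of 20 above 0) and -0.16 in cortex (5 of 20), inhibitory neuron genes -0.20 (8 of 22) and 0.14 (14 of 22), and genes of oxidative phosphorylation -0.07 (21 of 75) and 0.19 (69 of 75). The background over all genes was a median of -0.00037 in hippocampus and 0.02 in cortex. The same mice gave both regions, and these lists were not tested as lists.

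**Figure D5:**
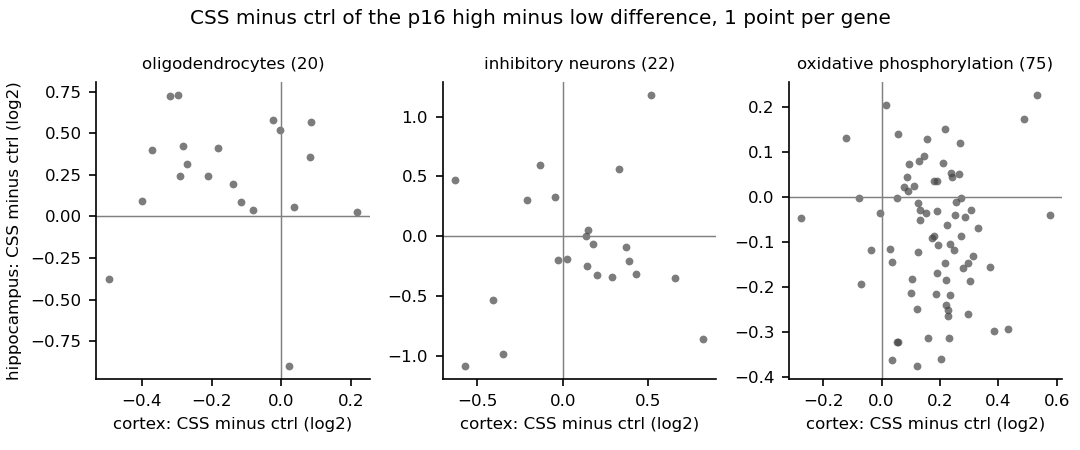
CSS minus ctrl difference of the p16 high minus low value (log2) in hippocampus (y axis) against cortex (x axis), 1 point per gene, for oligodendrocytes (20 genes), inhibitory neurons (22) and oxidative phosphorylation (75). Most oligodendrocyte points lie above and left of 0, and most oxidative phosphorylation points below and right of it.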

How the data were processed

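The values were the deposited signal of 19962 genes in 90 areas, scaled by the authors to a common median per area. The submitters' processing notes name mm10, and no source used here names the tools that read the probes. Whole counts were recovered from the steps of the deposited signal (tolerance 0.01). Some columns failed a check of these steps, so edgeR ran only on pairs in which both columns passed. In the hippocampus of ctrl mice these were CA1 pairs alone. Differences of log2(signal + 1), p16 high minus low within mouse and field, were averaged per mouse and compared between 6 CSS and 4 ctrl mice with limma 3.58.1 in R 4.3.3 (trended prior variance, Benjamini-Hochberg over all genes, threshold 0.05). edgeR 4.0.16 was an alternative. The test was checked on simulated data drawn without differences between mice, so that check does not cover variation between mice.

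Replicates were mice, by their identity labels, and both areas of a pair came from the same mouse. Deviations within the 16 pairs correlated at -0.02 to 0.59 over genes (median 0.05). Named genes were 12 chosen ones, the 10 highest and 10 lowest moderated t among genes above the median gene in signal, up to 4 members of each list by p, and the 3 highest and 3 lowest of each other comparison. Of 705 list symbols in 29 lists, 687 matched as written, 14 through RefSeq synonyms and 4 did not. Members and lists were chosen with earlier results of these data known. Results of a few genes are not reported here.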

Additional observations from a re-analysis of the deposited data

Results flagged for a closer look

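In 18 of 234 groups of within-mouse p16 differences, 1 mouse stood apart from the rest of its group by Dixon's 95% critical value. In independent groups of normal values chance alone does so in about 1 of 20. Most of the genes were named by their values in these data, and genes and lists share members and mice. The 18 groups therefore cannot be set against that rate. Of the 18, 7 were in ctrl mouse 1182 and 4 in CSS mouse 1163, both with CA1 as their only paired field.

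On the log2 scale, CSS mouse 1163 stood apart at 1.69 for Pik3ca, 2.1 for Homer3, 1.57 for the calcium sensor gene Ncald and 1.33 for the myelin enzyme gene Cnp. Ctrl mouse 1182 stood apart at -1.67 for Noc3l, -1.42 for C2cd4b, 1.61 for Pdk4, -0.71 for Ncald and 1.36 for Vip. For the mean of a list, the same ctrl mouse stood at -0.37 for oligodendrocyte precursors and 0.41 for the interferon response and antigen presentation.

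CSS mouse 1170 stood at -2.47 for Ugt8a, at -1.02 for Nfkbia and at -0.52 for the mean of neurotrophins and their receptors. CSS mouse 1169 stood at -0.56 for the mean of CA1 pyramidal markers, and CSS mouse 1152 at -0.06 for that of the postsynaptic density. Ctrl mouse 1175 stood at -0.03 for Egr1 and ctrl mouse 1168 at -0.23 for the ribosomal protein gene Rps15a.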

How the results depend on the processing

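The hippocampal comparison called 0 genes in 22 of 24 other settings, CA3 alone in 18 of 18, CA1 alone in 11 of 18 and hippocampus minus cortex in 18 of 21. Field as a term called 1 gene, Ptgds, and edgeR 2. In CA1, 1 gene (Ptgds) was called with a pseudocount of 10, quantile normalization, 75th percentile scaling and depth as a covariate, and edgeR called 4 (Cyp2d12, Rgs19, Sst and Gm11596). Hippocampus minus cortex gave 7 in the mice with both fields, 1 (Rgs19) with signal over background as a covariate and 3 with edgeR (Sst, Rgs19 and Pvalb, 3 CSS and 2 ctrl mice). Leaving out each mouse gave 0 to 1 in CA1 and 0 in the other 3 comparisons. Without the pairing (no replicate block) each comparison called 0, with 433, 594, 385 and 468 genes at an unadjusted limma p under 0.05 for hippocampus, CA1, CA3 and hippocampus minus cortex. In the hippocampal comparison that number ran from 265 to 1077 over all settings, and it was 294 without ctrl mouse 1182. edgeR could not be run for CA3, where no ctrl mouse had a usable pair. Where it was run, its hippocampal ctrl pairs were thus of CA1 alone.

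Single genes turned sign with edgeR on recovered counts, to 0.211 for Fkbp5, 0.182 for Cpne7, 0.122 for Homer2, -0.406 for Nptx1, -0.0502 for Cdkn1c, 0.207 for Nptx2, 0.0513 for Ntf3, 0.488 for Cdkn2a and 0.176 for Hpca. In the mice with both fields they turned to -0.169 for Nptx1, -0.0164 for Cdkn2d, -0.117 for Cdkn1c, -0.122 for Ncald, -0.10 for Bdnf, 0.412 for Ttr and 0.473 for Cdkn2a. Cpne7 ran from -0.618 to 0.0279 when single mice were left out. The edgeR set held ctrl pairs of CA1 alone but CSS pairs of both fields. Effects of the test and of the fields cannot be told apart in it. The cause of the turns was not tested. Over 88 genes, 41 of 2098 values turned sign, in 17 genes, among them 9 of Egr1, 7 of Nr3c1 and 6 of Cdkn2a, whose differences were small against their errors. Depth limits genes near the negative probe, Cdkn2a among them.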
